A study of Homo sapiens with 12 samples.

Results

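U87 cells treated with compound 5 were compared directly with U87 cells treated with compound 4. U87, also called U87MG, is an established human glioblastoma line; here it was grown in medium with serum. Cells received compound 5 at 5 µM or compound 4 at 10 µM and were harvested after 72 h, with 3 libraries of poly(A) RNA in each group. These 6 of the 12 libraries in the series form the comparison. Vehicle-treated cells, also 3 libraries, give the level without a compound. A further 3 libraries came from cells given compound 1 at 30 µM. They entered the mean level by which genes were selected and the fit with its estimate of the spread between libraries. Compound 1 levels are given for some genes and lists. The labels describe the libraries of a group as independent biological replicates and name no batch, solvent or structure for a numbered compound. Compound and dose changed together, so that the effect of the molecule and the effect of its concentration cannot be told apart in any difference below. All groups came from 1 cell line at 1 time.

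Several well-known stress and synthesis programmes are the background to the genes below. Cells short of sterol cleave the transcription factor SREBP-2 in the Golgi, and its released part switches on the enzymes of cholesterol synthesis; its relative SREBP-1 does the same for fatty acid synthesis. Unfolded protein in the cytosol frees heat shock factor 1, which induces chaperones of the HSP70 family within the nucleus and cytosol. Stress at the endoplasmic reticulum, amino acid shortage or heme shortage leads through phosphorylated eIF2α to the factor ATF4, whose targets include ATF3, the transcription factor CHOP (DDIT3) and amino acid transporters. The factor NF-kB drives cytokines and chemokines.

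Values are the regularized logarithm (rlog) of each gene's count, in which 1 unit is a doubling. A level is the value in 1 library, and a difference is the mean level with compound 5 minus the mean level with compound 4, with its standard error (SE) from limma. The rlog step pulls the values of genes with few reads towards their mean, so it narrows both the differences and the spread of such genes. Among 15524 genes with a mean level of at least 3 over all 12 libraries, 3422 (22.0%) passed an adjusted p of 0.05 (limma, Benjamini-Hochberg over all genes tested). With compound 5, 1655 genes (10.7%) were higher and 1767 (11.4%) were lower than with compound 4. These shares of all genes tested are the background to every list count below. The median size of the called differences was 0.167, and 92 of them reached 0.5, of which 38 were higher and 54 lower. At a size of 1 or more there were 3, namely IGFBP3, which was higher, and HSPA6 and IL1B, which were lower. The compound 5 and compound 4 libraries did not overlap for 5439 genes (35.0%). Against vehicle, 5443 genes (35.1%) were called with compound 5 and 6300 (40.6%) with compound 4; these contrasts share the vehicle libraries, so they are only set side by side here.

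Libraries of each group lay closer to each other than to the other group. The root mean square difference over all tested genes was 0.0669 to 0.0996 among compound 5 libraries, 0.0606 to 0.0714 among compound 4 libraries and 0.129 to 0.142 between the groups. Within the compound 5 libraries, replicate 1 was the farthest from the rest, at 0.0951 and 0.0996 from the others, and at 7.69 on the second principal component of the 6 libraries (17.3% of the variance) against -2.73 and -3.96. Without it 4060 genes were called, and values that depend on it are given where they occur. Of the glial and neural stem cell markers, VIM had a mean level of 15.98, CD44 15.20 and GFAP 5.71 over all 12 libraries, while SOX2 had 0.09 and OLIG1 was listed at 0. Of the leukocyte markers 12 of 16 had a mean below 3, CD3D was listed at 0, and 0 of the 4 tested members were called (limma adjusted p; 22.0% of all genes were called), nor did any pass an unadjusted p of 0.05. In bulk RNA such as this, fewer cells of a kind and less RNA per cell cannot be told apart.

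**Figure D1:**
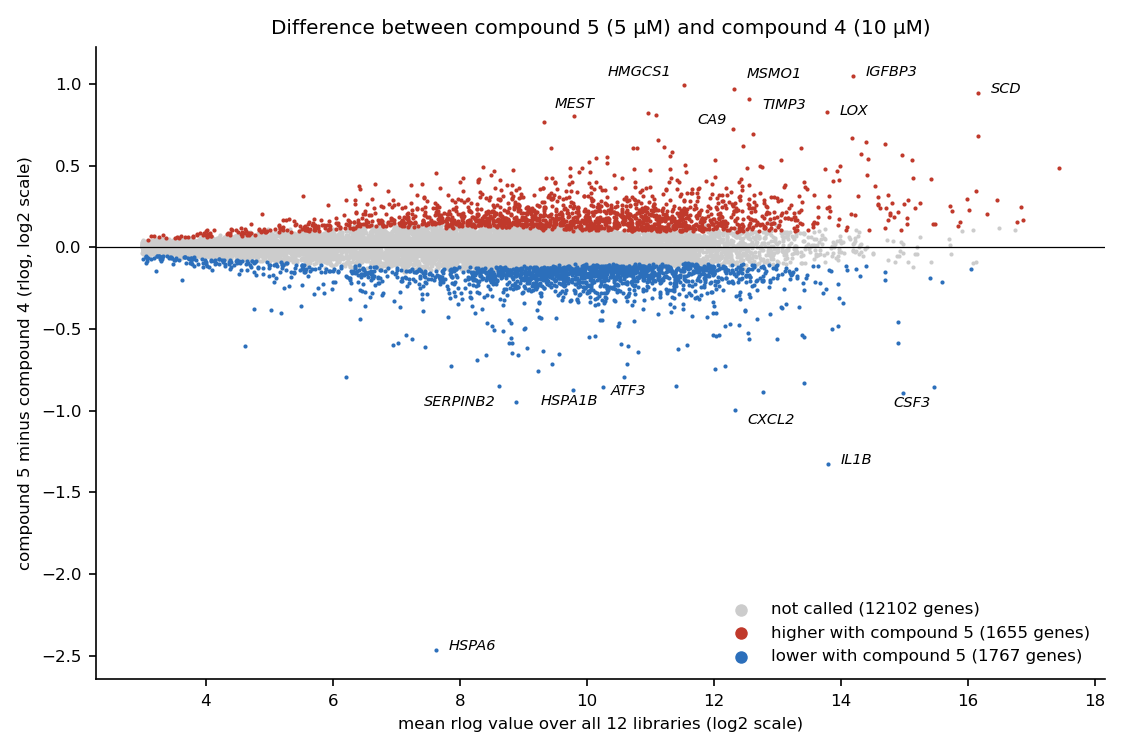
Difference between compound 5 and compound 4 (vertical axis, rlog, log2 scale) against the mean level over all 12 libraries (horizontal axis, rlog, log2 scale), 1 point per gene tested. Red points are the 1655 genes higher and blue points the 1767 genes lower with compound 5; HSPA6 lies at -2.47 and IL1B at -1.32, while IGFBP3 lies at 1.05.

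The gene with the largest difference was HSPA6, and 12 of 29 heat shock chaperone genes were lower with compound 5, where 11.4% of all genes tested were lower. HSPA6 encodes an HSP70 chaperone that is made in quantity only under stress (ENSG00000173110.8, GRCh38 chromosome 1, 161524540 to 161526910). Its level was 7.03, 7.09 and 7.22 with compound 5, against 9.36, 9.81 and 9.58 with compound 4, and 6.89, 6.84 and 6.99 with vehicle. Every compound 5 library lay more than 2 units below every compound 4 library and close above the vehicle libraries. The difference was -2.47 (SE 0.070, n = 3 per group, limma adjusted p = 7.88e-20), which is 5.53-fold lower on the rlog scale. HSPA6 rose with both compounds relative to vehicle, by 0.21 with compound 5 and by 2.67 with compound 4.

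The promoter of HSPA6 is printed because it carries, close to the start, the element that heat shock factors bind. The stretch runs from 250 bases before to 50 after the start on the plus strand, chr1:161524290-161524589 in RefSeq GRCh38.p14. Capitals mark the match to the 3 alternating units of the heat shock element, searched on both strands as TTC, GAA and TTC with NN between neighbours.
HSPA6: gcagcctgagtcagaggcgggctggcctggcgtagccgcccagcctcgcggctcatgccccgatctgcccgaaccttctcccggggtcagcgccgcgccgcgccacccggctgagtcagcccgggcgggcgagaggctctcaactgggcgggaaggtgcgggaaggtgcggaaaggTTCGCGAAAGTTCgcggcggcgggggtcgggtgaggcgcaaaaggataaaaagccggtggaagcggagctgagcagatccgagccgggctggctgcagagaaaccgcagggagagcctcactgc
The match begins at position -74 relative to the start. Of all 27305 genes with such a window, 0.608% held this element, and so did 9 of the 26 tested heat shock chaperone genes with a window. Of those 9, HSPA6 and HSPD1 were lower, SERPINH1 was higher and 6 were not called; of the 17 without it, 7 were lower, 1 was higher and 9 were not called. A match of letters is no evidence of binding. Only this spelling within this window was searched, so a missing match is no evidence that the element is absent. This holds for the other elements below too. Whether an element has a part in any difference was not tested.

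Other heat shock genes followed on a smaller scale. HSPA1B, the main inducible HSP70 (ENSG00000204388.7, chromosome 6, 31827735 to 31830255), had levels of 9.60, 9.62 and 9.67 with compound 5, 10.38, 10.67 and 10.47 with compound 4, and 9.62, 9.66 and 9.64 with vehicle. The compound 5 libraries overlapped the vehicle libraries, and all compound 4 libraries lay above them. The difference was -0.87 (SE 0.051, limma adjusted p = 6.58e-13). HSPA1A, its almost identical copy, differed by -0.60, and the way reads were divided between the copies is not stated. CRYAB, the small heat shock protein alpha B-crystallin, had 6.05, 6.12 and 6.09 with compound 5, 6.81, 7.02 and 6.82 with compound 4, and 5.89, 5.91 and 5.91 with vehicle, a difference of -0.80. HSPH1 (-0.38) and DNAJB1 (-0.33), co-chaperones of HSP70 chosen after their values were seen, were lower too. SERPINH1, the collagen chaperone HSP47, was 0.50 higher with compound 5, and HSPA2, also chosen after its value was seen, was 0.20 higher. The median difference over the 29 members was -0.08, against 0.00 over all genes tested. HSP90AA1 (-0.08) and HSPA8 (-0.04), the stress-induced HSP90 and the constitutive HSP70 of the cytosol, were chosen after their values were seen and did not pass. Against vehicle, 3 members rose and 3 fell with compound 5, where 15.9% of all genes tested rose and 19.2% fell, while 12 rose and 4 fell with compound 4, where 19.0% of all genes rose and 21.6% fell.

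Secreted inflammatory factors were lower with compound 5 than with compound 4. Among 33 tested cytokines, chemokines, proteases and other targets of NF-kB, 22 were lower and 2 were higher (11.4% and 10.7% of all genes tested), with a median of -0.36. The gene of interleukin 1 beta, IL1B (ENSG00000125538.12), lies on chromosome 2 from 112829751 to 112836903. Its level was 14.01, 14.08 and 14.25 with compound 5, against 15.44, 15.52 and 15.34 with compound 4, and 12.74, 13.02 and 12.96 with vehicle. The groups formed 3 separate steps, with compound 5 between compound 4 and vehicle. The difference was -1.32 (SE 0.082, limma adjusted p = 2.61e-12), a 2.50-fold lower level on the rlog scale.

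CXCL2 and CSF3 showed the same order of groups. CXCL2, a chemokine for neutrophils, had 12.10, 12.34 and 12.55 with compound 5, 13.37, 13.22 and 13.39 with compound 4, and 11.85, 11.96 and 11.95 with vehicle (difference -0.99, SE 0.072). CSF3, the granulocyte colony-stimulating factor, had 15.20, 15.38 and 15.51 with compound 5, 16.27, 16.23 and 16.26 with compound 4, and 14.27, 14.56 and 14.51 with vehicle (difference -0.89, SE 0.079). In both, no compound 5 library reached a compound 4 library. IL11 differed by -0.85 (SE 0.089) and LIF by -0.83 (SE 0.054); both are cytokines of the IL6 family that signal through gp130. SERPINB2, a plasminogen activator inhibitor that activated monocytes make, differed by -0.95 (SE 0.056). Relative to vehicle these 6 genes rose with each compound: IL1B by 1.21 with compound 5 and 2.53 with compound 4, CXCL2 by 0.41 and 1.40 in the same order, CSF3 by 0.91 and 1.80, IL11 by 1.26 and 2.11, LIF by 0.78 and 1.61, and SERPINB2 by 1.00 and 1.95.

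PTGS2, which encodes the inducible prostaglandin synthase COX-2, lay nearer to vehicle. Its level was 12.45, 12.72 and 12.79 with compound 5, 13.59, 13.47 and 13.56 with compound 4, and 12.49, 12.43 and 12.59 with vehicle. Compound 5 libraries overlapped the vehicle range and stayed below all compound 4 libraries (difference -0.88, SE 0.058, limma adjusted p = 7.24e-12). Of the feedback genes of NF-kB itself, NFKBIA, the inhibitor IκBα, differed by -0.13 (limma adjusted p = 0.0271), and TNFAIP3, the deubiquitinase A20, by 0.05 with a 95% interval of -0.03 to 0.13, not called. The 2 members higher with compound 5 were CCL2, the main monocyte chemokine, at 0.28, and CSF1, the macrophage growth factor, at 0.24. NFKBIA, TNFAIP3, CCL2 and CSF1 were chosen after their values were seen.

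The promoters of 3 CXC chemokine genes of the cluster on chromosome 4 are printed because they share a kB site at nearly the same place. They are read in the direction of transcription from RefSeq GRCh38.p14: CXCL1 at chr4:73869143-73869442 on the plus strand, CXCL2 at chr4:74099146-74099445 on the minus strand and CXCL3 at chr4:74038640-74038939 on the minus strand. Capitals mark GGAATTTCC, the letters searched on both strands.
CXCL1: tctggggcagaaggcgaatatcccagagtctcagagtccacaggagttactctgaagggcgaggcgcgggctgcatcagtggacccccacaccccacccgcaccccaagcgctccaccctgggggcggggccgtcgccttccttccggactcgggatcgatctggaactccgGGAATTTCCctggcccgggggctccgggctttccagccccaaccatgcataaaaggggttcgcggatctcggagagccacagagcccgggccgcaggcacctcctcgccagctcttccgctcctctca
CXCL2: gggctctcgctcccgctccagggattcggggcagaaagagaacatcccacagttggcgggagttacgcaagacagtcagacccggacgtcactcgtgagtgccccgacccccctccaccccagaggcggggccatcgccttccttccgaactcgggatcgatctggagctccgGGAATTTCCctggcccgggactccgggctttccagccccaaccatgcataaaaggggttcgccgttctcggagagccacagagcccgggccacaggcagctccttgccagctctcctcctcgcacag
CXCL3: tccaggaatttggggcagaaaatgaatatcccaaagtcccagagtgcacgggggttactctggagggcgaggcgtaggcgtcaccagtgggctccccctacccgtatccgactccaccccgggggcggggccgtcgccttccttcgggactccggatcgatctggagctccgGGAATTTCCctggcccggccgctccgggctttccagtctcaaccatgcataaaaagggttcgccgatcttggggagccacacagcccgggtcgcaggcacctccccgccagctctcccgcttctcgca
The site begins at -78 in CXCL1, -77 in CXCL2 and -78 in CXCL3. These genes are close paralogs with much sequence in common, and reads could be split between them. CXCL1 differed by -0.58 (SE 0.055) and CXCL3 by -0.60 (SE 0.064), both chosen for this site after their values were seen. The letters occurred in 0.56% of all 27305 genes with a window and in 9 of the 25 tested list members with a window. Of these 9, 8 were lower with compound 5 and 1 was not called; of the 16 without the site, 9 were lower and 7 were not called.

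**Figure D2:**
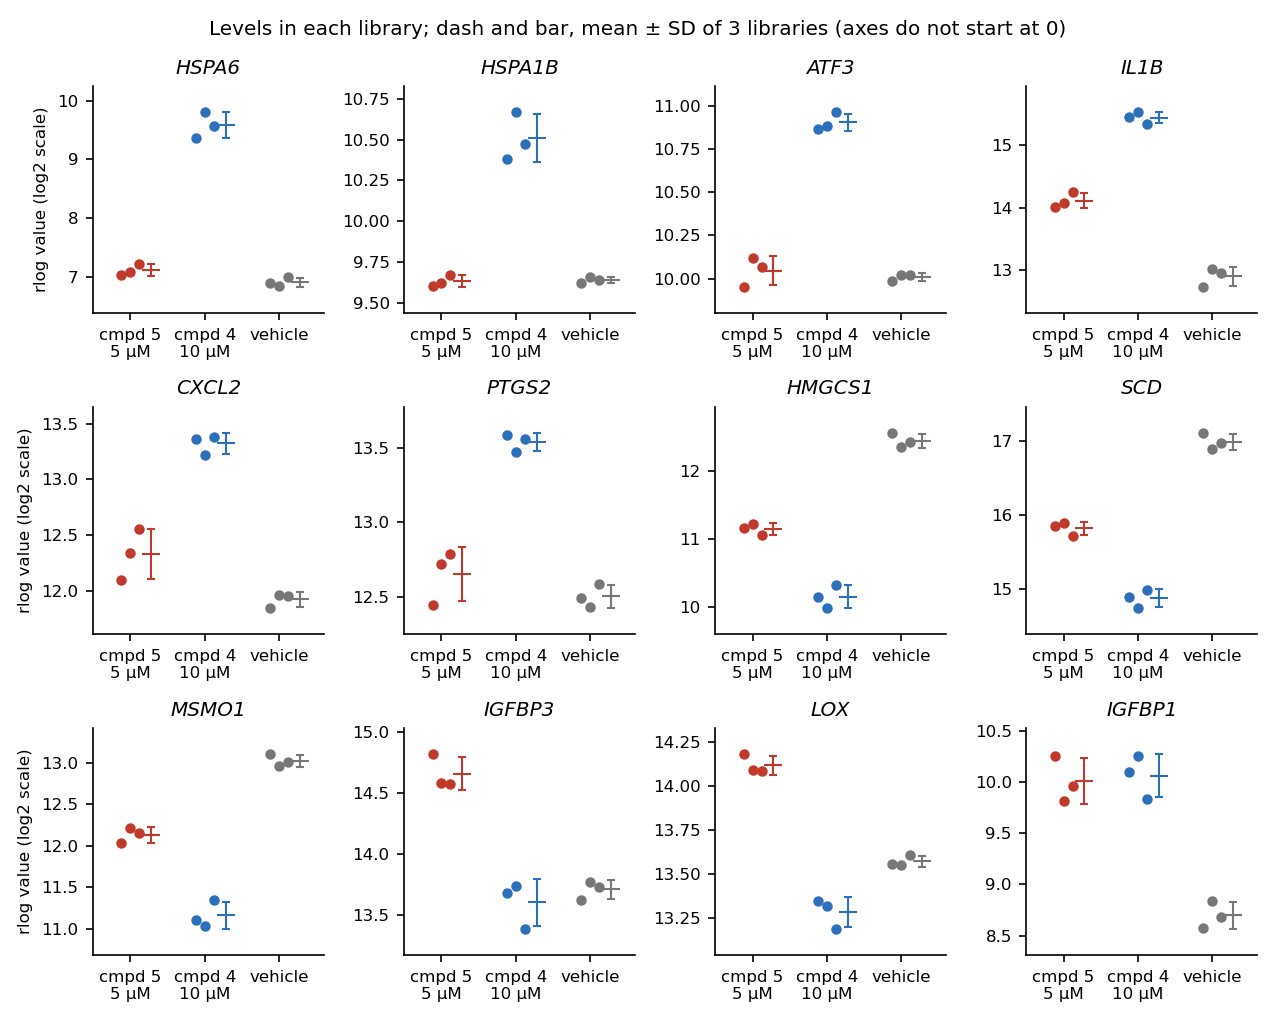
Levels (vertical axes, rlog, log2 scale, not starting at 0) of 12 genes in each library of compound 5, compound 4 and vehicle, with the mean and SD of 3 libraries beside the points. With compound 5, HSPA1B and ATF3 overlap the vehicle libraries, IL1B and HMGCS1 lie between compound 4 and vehicle, and IGFBP3 and LOX lie above both other groups; IGFBP1 lies above vehicle in both compound groups, which overlap (difference -0.05, not called).

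Genes of the ATF4 response were lower with compound 5 than with compound 4, and for several the compounds lay on opposite sides of vehicle. Of 35 tested members, 21 were lower and 3 were higher (11.4% and 10.7% of all genes tested), with a median of -0.13. Without replicate 1 of compound 5, 5 were higher. Relative to vehicle the list median was -0.28 with compound 5 and -0.11 with compound 4. With compound 5, 29 members fell and 2 rose (19.2% and 15.9% of all genes tested). With compound 4, 19 fell and 8 rose (21.6% and 19.0% of all genes). ATF3, PPP1R15A, DDIT3, SLC7A11, SLC3A2 and SESN2, given below, are among those that rose with compound 4. ATF3, a repressor induced by many stresses (ENSG00000162772.17, chromosome 1, 212565334 to 212620777), had 9.95, 10.12 and 10.07 with compound 5, 10.87, 10.88 and 10.96 with compound 4, and 9.98, 10.02 and 10.02 with vehicle. The compound 5 and vehicle libraries overlapped, and the compound 4 libraries lay above both (difference -0.86, SE 0.043, limma adjusted p = 4.86e-14). PPP1R15A, the GADD34 subunit that directs the dephosphorylation of eIF2α, differed by -0.79 (SE 0.044). DDIT3, which encodes CHOP, differed by -0.43 (SE 0.055), with 9.24, 9.33 and 9.46 in compound 5 libraries, 9.81, 9.62 and 9.89 in compound 4 libraries and 9.35, 9.40 and 9.43 in vehicle libraries; here too the compound 5 and vehicle libraries overlapped and the compound 4 libraries lay above.

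The subunits of the cystine transporter moved together. SLC7A11, the cystine and glutamate exchanger xCT (ENSG00000151012.13, chromosome 4, 138164097 to 138242349), had 9.27, 9.05 and 9.15 with compound 5, 9.88, 9.87 and 9.85 with compound 4, and 9.31, 9.41 and 9.48 with vehicle. Its heavy chain SLC3A2 had 11.87, 11.86 and 11.95 with compound 5, 12.62, 12.62 and 12.61 with compound 4, and 12.18, 12.11 and 12.09 with vehicle. For both, all compound 5 libraries lay below and all compound 4 libraries above the vehicle libraries. The difference was -0.71 for SLC7A11 (SE 0.049, limma adjusted p = 1.68e-11) and -0.72 for SLC3A2 (SE 0.036, limma adjusted p = 4.86e-14). SLC7A5, the leucine transporter LAT1 that uses the same heavy chain, was below vehicle with both compounds and differed by -0.28. SESN2, a leucine sensor upstream of mTORC1, differed by -0.64 and was -0.49 relative to vehicle with compound 5 and 0.15 with compound 4. ATF4 mRNA itself differed by -0.13 (limma adjusted p = 0.0229). The members higher with compound 5 were PYCR1 (0.44) and ALDH18A1 (0.24), enzymes of proline synthesis, and PHGDH (0.23), the first enzyme of serine synthesis. ATF4 and these 3 were chosen after their values were seen.

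The promoter of CHAC1, a glutathione-degrading enzyme induced through ATF4, is printed as an example of the composite CEBP and ATF element in this list (chr15:40953221-40953520, plus strand, RefSeq GRCh38.p14). The element was searched as TGATGNAA on both strands, and capitals mark the match, here on the opposite strand.
CHAC1: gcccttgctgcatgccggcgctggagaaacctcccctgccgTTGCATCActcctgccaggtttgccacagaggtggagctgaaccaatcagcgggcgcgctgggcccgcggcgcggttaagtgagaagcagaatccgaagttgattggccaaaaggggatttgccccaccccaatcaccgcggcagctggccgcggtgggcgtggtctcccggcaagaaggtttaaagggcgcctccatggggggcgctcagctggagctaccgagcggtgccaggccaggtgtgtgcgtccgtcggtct
The match begins at -209. CHAC1, chosen for this element after its value was seen, had 8.42, 8.53 and 8.49 with compound 5, 8.96, 8.92 and 8.95 with compound 4, and 9.11, 8.81 and 8.92 with vehicle, a difference of -0.46 (SE 0.057). In this gene the compound 4 libraries overlapped vehicle and the compound 5 libraries lay below. The element was in 4.46% of all genes with a window and in 10 of the 29 tested members with a window. Of the 10 with it, 8 were lower and 2 were not called; of the 19 without it, 11 were lower, 2 were higher and 6 were not called.

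Genes of cholesterol synthesis were higher with compound 5 than with compound 4, and both groups lay below vehicle. Of 26 tested members 23 were higher and 0 were lower (10.7% and 11.4% of all genes tested), with a median of 0.32 in the direct comparison. These calls used the limma adjusted p, and none was lower at an unadjusted p of 0.05 either. Relative to vehicle the list median was -0.60 with compound 5 and -0.84 with compound 4. HMGCS1, the HMG-CoA synthase that feeds the mevalonate pathway (ENSG00000112972.15, chromosome 5, 43289395 to 43313512), had 11.17, 11.22 and 11.05 with compound 5, 10.14, 9.99 and 10.32 with compound 4, and 12.56, 12.36 and 12.42 with vehicle. All compound 5 libraries lay above all compound 4 libraries and below all vehicle libraries. The difference was 1.00 (SE 0.072, limma adjusted p = 4.08e-11), or 2.00-fold on the rlog scale.

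The same order held along the pathway. MSMO1, a methylsterol oxidase of the late steps, had 12.03, 12.21 and 12.15 with compound 5, 11.11, 11.03 and 11.34 with compound 4, and 13.10, 12.95 and 13.01 with vehicle (difference 0.97, SE 0.066). IDI1, the isopentenyl diphosphate isomerase, differed by 0.66 (SE 0.055) and DHCR7, which makes cholesterol from its last precursor, by 0.62 (SE 0.046). INSIG1, which retains the SREBP complex in the endoplasmic reticulum, differed by 0.44, and SREBF2, the gene of SREBP-2, by 0.32. The 3 members not called were PMVK at -0.02, LSS at -0.04 and CYP51A1 at 0.08, with 95% intervals of -0.12 to 0.07, -0.13 to 0.05 and -0.04 to 0.19. LSS and CYP51A1, which work next to each other on lanosterol, stood below vehicle with each compound: LSS at -0.63 with compound 5 and -0.59 with compound 4, and CYP51A1 at -0.61 and -0.69 in the same order. INSIG1, SREBF2 and the 3 members not called were chosen after their values were seen. A sterol regulatory element, searched in the promoter windows as TCACNCCAC on both strands, was in 1.39% of all genes with a window. Of the 19 tested members with a window only 1, SREBF2, held it. Among the 18 without it, 15 were higher with compound 5 and 3 were not called. A member without a match may still hold the element in another spelling or outside the window.

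In fatty acid synthesis SCD, FADS2, FASN and ACSS2 showed the same order. Of 19 tested members 12 were higher with compound 5 and 1 was lower (10.7% and 11.4% of all genes tested). The median was 0.18, and 2 were lower without replicate 1 of compound 5. SCD, which desaturates stearoyl-CoA (ENSG00000099194.6, chromosome 10, 100347124 to 100364834), had 15.85, 15.89 and 15.71 with compound 5, 14.89, 14.74 and 14.99 with compound 4, and 17.10, 16.89 and 16.97 with vehicle. The 3 groups did not overlap, and the difference was 0.94 (SE 0.067, limma adjusted p = 2.83e-11). FADS2, the delta-6 desaturase, differed by 0.81 (SE 0.046), FASN, which builds palmitate, by 0.54 (SE 0.047), and ACSS2, the acetyl-CoA synthetase, by 0.32 (SE 0.060). The synthesis enzymes ACLY (0.04), ACACA (0.06) and ACACB (-0.11), chosen after their values were seen, were not called. The member lower with compound 5 was ACSL1 (-0.31), chosen after its value was seen, which activates long-chain fatty acids; it was -0.11 relative to vehicle with compound 5 and 0.20 with compound 4. Among 13 genes of sterol efflux and trafficking, ABCA1, the cholesterol exporter, was lower by -0.47 (SE 0.049), and stood at 0.08 relative to vehicle with compound 5, not called, and 0.56 with compound 4. LIPA and NPC2, a lysosomal lipase and a lysosomal sterol carrier, were higher, by 0.24 and 0.23. MYLIP (-0.15) and SOAT1 (-0.14), a ubiquitin ligase and a cholesterol esterifying enzyme, were lower, the second of them chosen after its value was seen. MYLIP lost its call in at least 1 of the other settings.

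**Figure D3:**
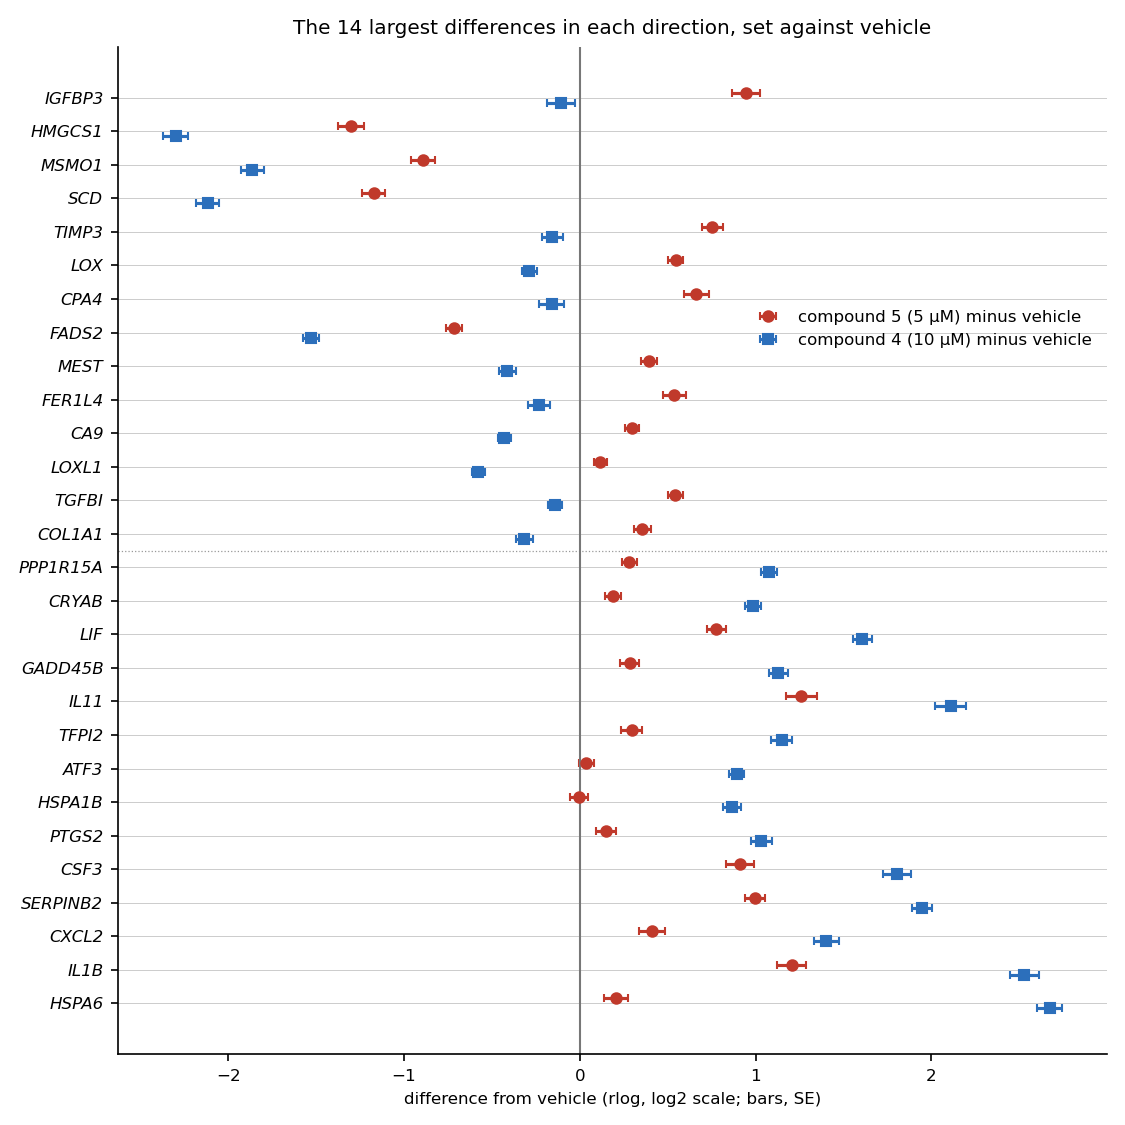
The 14 largest differences in each direction, shown for each compound relative to vehicle (horizontal axis, rlog, log2 scale; bars are SE; red circles, compound 5; blue squares, compound 4). Above the dotted line are genes higher with compound 5, in 4 of which (HMGCS1, MSMO1, SCD and FADS2) both compounds lie below vehicle; below it are genes lower with compound 5, for which compound 4 lies 0.87 to 2.67 above vehicle.

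Genes that modify and crosslink collagen were higher with compound 5. Of 20 tested members of the list of collagen crosslinking and folding, 15 were higher and 1 was lower (10.7% and 11.4% of all genes tested). The median was 0.36 in the direct comparison, 0.13 for compound 5 relative to vehicle and -0.13 for compound 4. Relative to vehicle 14 members rose and 3 fell with compound 5 (15.9% and 19.2% of all genes tested), while 3 rose and 14 fell with compound 4 (19.0% and 21.6% of all genes). By library, the median relative to the vehicle mean was 0.11, 0.16 and 0.16 with compound 5. With compound 1 it was much the same, at 0.15, 0.17 and 0.16. LOX, the lysyl oxidase that starts collagen and elastin crosslinks (ENSG00000113083.15, chromosome 5, 122063195 to 122078360), had 14.18, 14.09 and 14.08 with compound 5, 13.35, 13.32 and 13.19 with compound 4, and 13.56, 13.55 and 13.61 with vehicle. Compound 5 libraries lay above and compound 4 libraries below every vehicle library (difference 0.83, SE 0.041, limma adjusted p = 4.86e-14). The compound 1 libraries of LOX, at 14.14, 14.13 and 14.08, overlapped those of compound 5. Its relatives LOXL1 and LOXL2 differed by 0.69 and 0.57. PLOD2, the lysyl hydroxylase of collagen telopeptides, differed by 0.57, with 14.72, 14.61 and 14.65 in compound 5 libraries, 14.09, 14.13 and 14.04 in compound 4 libraries and 14.10, 14.11 and 14.14 in vehicle libraries. The member that was lower, TGM2 (-0.54), is transglutaminase 2, which crosslinks proteins by another bond; it rose with both compounds, by 0.33 with compound 5 and 0.87 with compound 4, and was chosen after its value was seen.

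Matrix proteins gave a mixed list with large single differences. Of 38 tested collagens and matrix proteins 19 were higher and 4 were lower (2 lower without replicate 1 of compound 4), with a median of 0.12. Here and for the mesenchymal and glial lists below, 10.7% of all genes tested were higher and 11.4% lower. TGFBI, an adhesion protein induced by TGF-beta, had 16.51, 16.46 and 16.43 with compound 5, 15.81, 15.82 and 15.71 with compound 4, and 15.97, 15.89 and 15.91 with vehicle (difference 0.68, SE 0.041). COL1A1, a chain of fibrillar collagen I, had 14.66, 14.47 and 14.40 with compound 5, 13.79, 13.91 and 13.81 with compound 4, and 14.17, 14.12 and 14.17 with vehicle (difference 0.67, SE 0.049). In these 2 genes vehicle lay between compounds 5 and 4. With compound 1 TGFBI had 16.51, 16.48 and 16.46, which overlapped compound 5. COL1A1 had 14.24, 14.18 and 14.14 with compound 1, below the compound 5 libraries. SPARC, a collagen-binding glycoprotein, differed by 0.63 (SE 0.043) and COL1A2, the partner chain of collagen I, by 0.53 (SE 0.044); relative to vehicle SPARC was -0.13 with compound 5 and -0.76 with compound 4, and COL1A2 was -0.13 and -0.67 in the same order. The collagen IV chains of basement membranes, COL4A1 (-0.02) and COL4A2 (-0.13), chosen after their values were seen, did not pass. Of 31 mesenchymal and invasion genes 12 were higher and 3 lower (5 lower without replicate 1 of compound 5; median 0.09), among them VIM (0.30) and PDGFRB (0.33), higher, and ITGB3 (-0.26), lower. Glial and neural stem cell markers, which share VIM, CD44 and TNC with these lists, had 5 of 12 tested members higher and 1 lower (0 lower without replicate 1 of either compound or replicate 2 of compound 4), and 9 further markers had a mean below 3.

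Proteases and their inhibitors divided. Of 26 tested members 8 were higher and 9 lower (10.7% and 11.4% of all genes tested), with a median of -0.04. TIMP3, a matrix-bound inhibitor of metalloproteinases (ENSG00000100234.12, chromosome 22, 32801701 to 32863043), had 13.15, 12.89 and 12.85 with compound 5, 12.11, 12.06 and 11.99 with compound 4, and 12.20, 12.22 and 12.21 with vehicle. The compound 5 libraries all lay above the compound 4 and vehicle libraries (difference 0.91, SE 0.059, limma adjusted p = 6.31e-12). They overlapped the compound 1 libraries, at 13.07, 13.09 and 12.84. TFPI2, a secreted serine protease inhibitor, went the other way, with 15.21, 15.48 and 15.59 for compound 5, 16.30, 16.25 and 16.28 for compound 4, and 15.11, 15.15 and 15.14 for vehicle (difference -0.85, SE 0.059). THBD, the thrombin receptor thrombomodulin, differed by -0.60, and the collagenase MMP1 and stromelysin MMP3, chosen after their values were seen, by -0.48 and -0.47.

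IGFBP3 was the gene with the largest positive difference. It encodes the main carrier of insulin-like growth factors in serum (ENSG00000146674.16, chromosome 7, 45912245 to 45921874). Its level was 14.82, 14.58 and 14.57 with compound 5, 13.69, 13.74 and 13.39 with compound 4, and 13.63, 13.78 and 13.73 with vehicle. Compound 5 libraries lay above all compound 4 and vehicle libraries, while compound 4 and vehicle libraries overlapped (difference 1.05, SE 0.079, limma adjusted p = 8.08e-11, 2.07-fold on the rlog scale). The level was also high with compound 1, at 14.88, 14.96 and 14.57, and the compound 1 libraries overlapped those of compound 5. Its neighbour IGFBP1, which lies beside it on chromosome 7 from 45888357 to 45893668, did not differ beyond the spread: 10.26, 9.82 and 9.96 with compound 5, 10.10, 10.26 and 9.84 with compound 4, and 8.57, 8.83 and 8.68 with vehicle. Its difference was -0.05 with a 95% interval of -0.26 to 0.15 (limma adjusted p = 0.769), and relative to vehicle it rose by 1.32 with compound 5 and by 1.37 with compound 4. A set of 3 further genes outside the lists stood among the largest positive differences. CPA4, a secreted carboxypeptidase, had 11.61, 11.21 and 11.25 with compound 5, 10.51, 10.65 and 10.44 with compound 4, and 10.66, 10.74 and 10.68 with vehicle (difference 0.82, SE 0.070). MEST, an imprinted gene, differed by 0.81 (SE 0.048) and FER1L4, a pseudogene that is transcribed into a noncoding RNA, by 0.77 (SE 0.064). In all 3 genes every compound 5 library lay above every compound 4 and vehicle library, while the compound 1 libraries overlapped those of compound 5. Relative to vehicle CPA4, MEST and FER1L4 stood at 0.66, 0.39 and 0.54 with compound 5 and at -0.16, -0.41 and -0.23 with compound 4. Among growth factors, FGF2 was lower by -0.53 (SE 0.040). Of the 6 tested ligands of the EGF receptor family, NRG1 (-0.62, SE 0.051), EREG (-0.48, SE 0.038), HBEGF (-0.34) and BTC (-0.11) were lower, while EGF (0.02) and TGFA (0.04) were not called; HBEGF, BTC, EGF and TGFA were chosen after their values were seen. In the list of growth factors and receptors 11 of 37 tested members were higher and 9 lower (10.7% and 11.4% of all genes tested). Without replicate 1 of compound 4, 5 were lower.

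Hypoxia and glycolysis genes were higher with compound 5. Of 38 tested members 22 were higher and 2 lower (10.7% and 11.4% of all genes tested), with a median of 0.21. Relative to vehicle the median was 0.23 with compound 5 and 0.01 with compound 4. By library, the median relative to the vehicle mean was 0.27, 0.19 and 0.17 with compound 5. With compound 1 it was 0.21, 0.21 and 0.07. CA9, a cell-surface carbonic anhydrase and a standard target of the factor HIF-1 (ENSG00000107159.14, chromosome 9, 35673856 to 35681159), had 12.55, 12.55 and 12.57 with compound 5, 11.84, 11.84 and 11.80 with compound 4, and 12.26, 12.25 and 12.27 with vehicle. The 3 groups were tight and separate, with vehicle in the middle (difference 0.73, SE 0.039, limma adjusted p = 1.68e-13). With compound 1 CA9 had 12.59, 12.59 and 12.44, a range that held the compound 5 libraries. ALDOC, the brain form of aldolase, differed by 0.62 (SE 0.041), and BNIP3, a mitophagy receptor, by 0.48 (SE 0.054). SLC2A1, the glucose transporter GLUT1, had 12.02, 11.64 and 11.64 with compound 5 and 11.59, 11.68 and 11.43 with compound 4, against 10.96, 11.06 and 11.08 with vehicle; the compound groups overlapped and the difference of 0.20 was not called (SE 0.087, limma adjusted p = 0.107). The first step of glycolysis went the other way, with HK1 and HK2 each at -0.16, chosen after their values were seen; neither was called without replicate 2 of compound 5 or with no filter on low values, and 1 was called without replicate 3 of compound 5 or replicate 1 of compound 4. VEGFA, an angiogenic target of HIF-1 and also chosen after its value was seen, stood at 0.02. TXNIP, the glucose-responsive inhibitor of glucose uptake, had 14.04, 14.26 and 14.22 with compound 5, 13.53, 13.42 and 13.63 with compound 4, and 14.98, 14.79 and 14.86 with vehicle (difference 0.65, SE 0.059), with compound 5 again between compound 4 and vehicle.

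Redox genes differed in both directions. The list counts here stand beside 10.7% of all genes tested higher and 11.4% lower with compound 5. HMOX1, heme oxygenase 1, had 12.58, 12.48 and 12.49 with compound 5, 12.79, 12.86 and 12.72 with compound 4, and 11.25, 11.29 and 11.26 with vehicle. Both compound groups lay far above vehicle, at 1.25 for compound 5 and 1.52 for compound 4, and their own difference was -0.27 (SE 0.039, limma adjusted p = 5.95e-06). TXNRD1, thioredoxin reductase, differed by -0.44 (SE 0.040) and stood at -0.38 relative to vehicle with compound 5 and at 0.06 with compound 4, not called. Of 27 tested NRF2 targets 11 were lower and 5 higher (3 higher without replicate 2 or 3 of compound 5 or replicate 2 of compound 4), with a median of -0.05; the cystine exchanger gene SLC7A11, described above at -0.71, belongs to this list as well and had its largest difference. SQSTM1, the autophagy receptor p62, differed by -0.50 (SE 0.038), with -0.26 relative to vehicle for compound 5 and 0.24 for compound 4. Of 32 lysosome and autophagy genes 11 were lower and 4 higher; without replicate 2 of either compound 6 were lower (2 higher without replicate 2 of compound 5), and without replicate 1 of compound 4 there were 7. Of 10 metallothioneins and zinc transporters 4 were higher (2 without replicate 2 of compound 5 or replicate 1 of compound 4) and 3 lower, with MT1G at -0.38 and MT3 at 0.38; the MT1 genes are close copies, among which reads could be split.

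p53 targets and growth arrest genes were lower with compound 5 in 15 of 30 cases and higher in 4, with a median of -0.11. Without replicate 1 or 2 of compound 4, 2 were higher. Among all genes tested 11.4% were lower and 10.7% higher. GADD45B, a stress-induced growth arrest gene (ENSG00000099860.9, chromosome 19, 2476122 to 2478259), had 8.45, 8.60 and 8.60 with compound 5, 9.24, 9.48 and 9.47 with compound 4, and 8.32, 8.25 and 8.23 with vehicle (difference -0.85, SE 0.054). GDF15, a secreted stress cytokine, had 11.67, 11.89 and 11.88 with compound 5, 12.53, 12.55 and 12.60 with compound 4, and 12.01, 11.81 and 11.75 with vehicle (difference -0.75, SE 0.057). For GDF15 the compound 5 and vehicle libraries overlapped. The classical p53 target CDKN1A, the inhibitor p21, differed by -0.11 (SE 0.040, limma adjusted p = 0.0458) and lost its call in at least 1 of the other settings. SESN2, GADD45A, GADD45B and GDF15 are also induced by ATF4 or NF-kB signalling. Of 34 immediate early and AP-1 genes 14 were lower and 3 higher (median -0.04); ATF3, DUSP1 (-0.55), FOSB (-0.44) and SPRY2 (-0.31) led the lower ones. The higher ones, chosen after their values were seen, were the zinc finger factors EGR1 (0.20) and EGR2 (0.26) and the nuclear receptor NR4A2 (0.26).

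Cell cycle and DNA repair genes gave few calls between compound 5 and compound 4, set beside 22.0% of all genes tested. Of 51 replication genes 6 were higher and 1 lower (13.7%), of 43 genes of G2 and mitosis 1 was higher and 2 lower (6.98%), and of 30 genes that repair DNA by homologous recombination or the Fanconi pathway 1 was higher and 1 lower (6.67%). Those of G2 and mitosis were KIF20A (0.16), higher, and the kinases AURKA (-0.13) and PLK1 (-0.12), lower; leaving out 1 library moved the counts of these lists to between 0 and 4. MKI67, the proliferation antigen, had 12.90, 12.77 and 12.57 with compound 5, 12.77, 12.79 and 12.63 with compound 4, and 12.67, 12.84 and 12.86 with vehicle. The groups overlapped, and the difference of 0.02 had a 95% interval of -0.10 to 0.14 (limma adjusted p = 0.863). TK1, the thymidine kinase of S phase, was 0.24 higher (SE 0.043). CCND1, cyclin D1, was lower by -0.28 (SE 0.055) and stood above vehicle with both compounds, at 0.43 with compound 5 and 0.71 with compound 4. MYC differed by 0.06 and was not called (95% interval -0.03 to 0.15). The count of higher replication genes was 2 without replicate 1 or 2 of compound 4 and 3 without replicate 3 of either compound, 1 with no filter on low values, and 14 with the covariate for nuclear noncoding transcripts described last.

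Among the genes of tubulin, the building block of microtubules, 2 isotypes of alpha tubulin led. Of 34 tubulin isotypes and microtubule proteins 6 were higher and 3 lower (26.5%, beside 22.0% of all genes tested), with a median of 0.03. TUBA1A had 11.72, 11.68 and 11.69 with compound 5, 11.21, 11.24 and 11.27 with compound 4, and 11.62, 11.66 and 11.62 with vehicle (difference 0.46, SE 0.038), so that the compound 4 libraries lay below both other groups. TUBA4A had 12.83, 12.79 and 12.79 with compound 5, 12.39, 12.48 and 12.40 with compound 4, and 12.38, 12.49 and 12.40 with vehicle (difference 0.38, SE 0.044), so that the compound 5 libraries lay above both. TUBB3, the neuronal isotype, differed by -0.01 with a 95% interval of -0.08 to 0.06. The count of lower members was 7 without replicate 1 of compound 5 and 1 without replicate 2 of either compound.

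Ribosome biogenesis genes were lower with compound 5 by small amounts. Of 35 tested members 19 were lower and 0 higher (11.4% and 10.7% of all genes tested), with a median of -0.12 and a range of -0.26 to 0.06. These calls used the limma adjusted p, and none was higher at an unadjusted p of 0.05 either. RRP9, a component of the U3 particle that processes ribosomal RNA, differed by -0.26 (SE 0.047) and POLR1A, the large subunit of RNA polymerase I, by -0.25 (SE 0.048). RRP9 stood at 0.01 relative to vehicle with compound 5, not called, and at 0.28 with compound 4. Without replicate 2 of either compound, or with no filter on low values, the count was 12. In the endoplasmic reticulum list of 23 genes, calreticulin CALR (0.29) and the disulfide isomerase PDIA3 (0.31) were among 6 that were higher, and DNAJB9 (-0.32) and ERN1 (-0.31), a co-chaperone and the stress sensor IRE1, were among 8 that were lower.

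Transcripts that can vary with RNA handling moved with the groups as well, where 10.7% of all genes tested were higher and 11.4% lower. Of 9 nuclear noncoding transcripts, retained in the nucleus and sensitive to how RNA was prepared, 5 were higher with compound 5 and 1 lower (1 higher without replicate 2 or 3 of compound 5 or replicate 2 of compound 4, and 2 without replicate 1 of compound 4); their median relative to the vehicle mean was 0.15, 0.23 and 0.17 in the compound 5 libraries and 0.04, 0.01 and 0.12 in the compound 4 libraries. MALAT1 had 9.29, 9.74 and 9.87 with compound 5 and 9.31, 9.21 and 9.42 with compound 4, which overlap (difference 0.32, SE 0.101, limma adjusted p = 0.0222). NEAT1 stood at -0.12 and was not called, and relative to vehicle it rose by 0.72 with compound 5 and 0.84 with compound 4. With the level of these transcripts as a covariate 2731 genes were called, 1429 higher and 1302 lower. Mitochondrially encoded mRNAs, 7 of 13 higher and 0 lower with a median of 0.20 (limma adjusted p; none was lower at an unadjusted p of 0.05 either), depended in size on 1 library: their median relative to the vehicle mean was 0.48, 0.66 and 0.62 in the compound 5 libraries and 0.46, 0.49 and 0.17 in the compound 4 libraries. Without replicate 3 of compound 4 the median difference was 0.09, and 2 members were called higher with no filter on low values or with robust eBayes. The level of the nuclear noncoding transcripts differed between the groups, so as a covariate it cannot tell RNA handling from a response to the compounds. The part of RNA handling in the differences above was not tested.

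**Figure D4:**
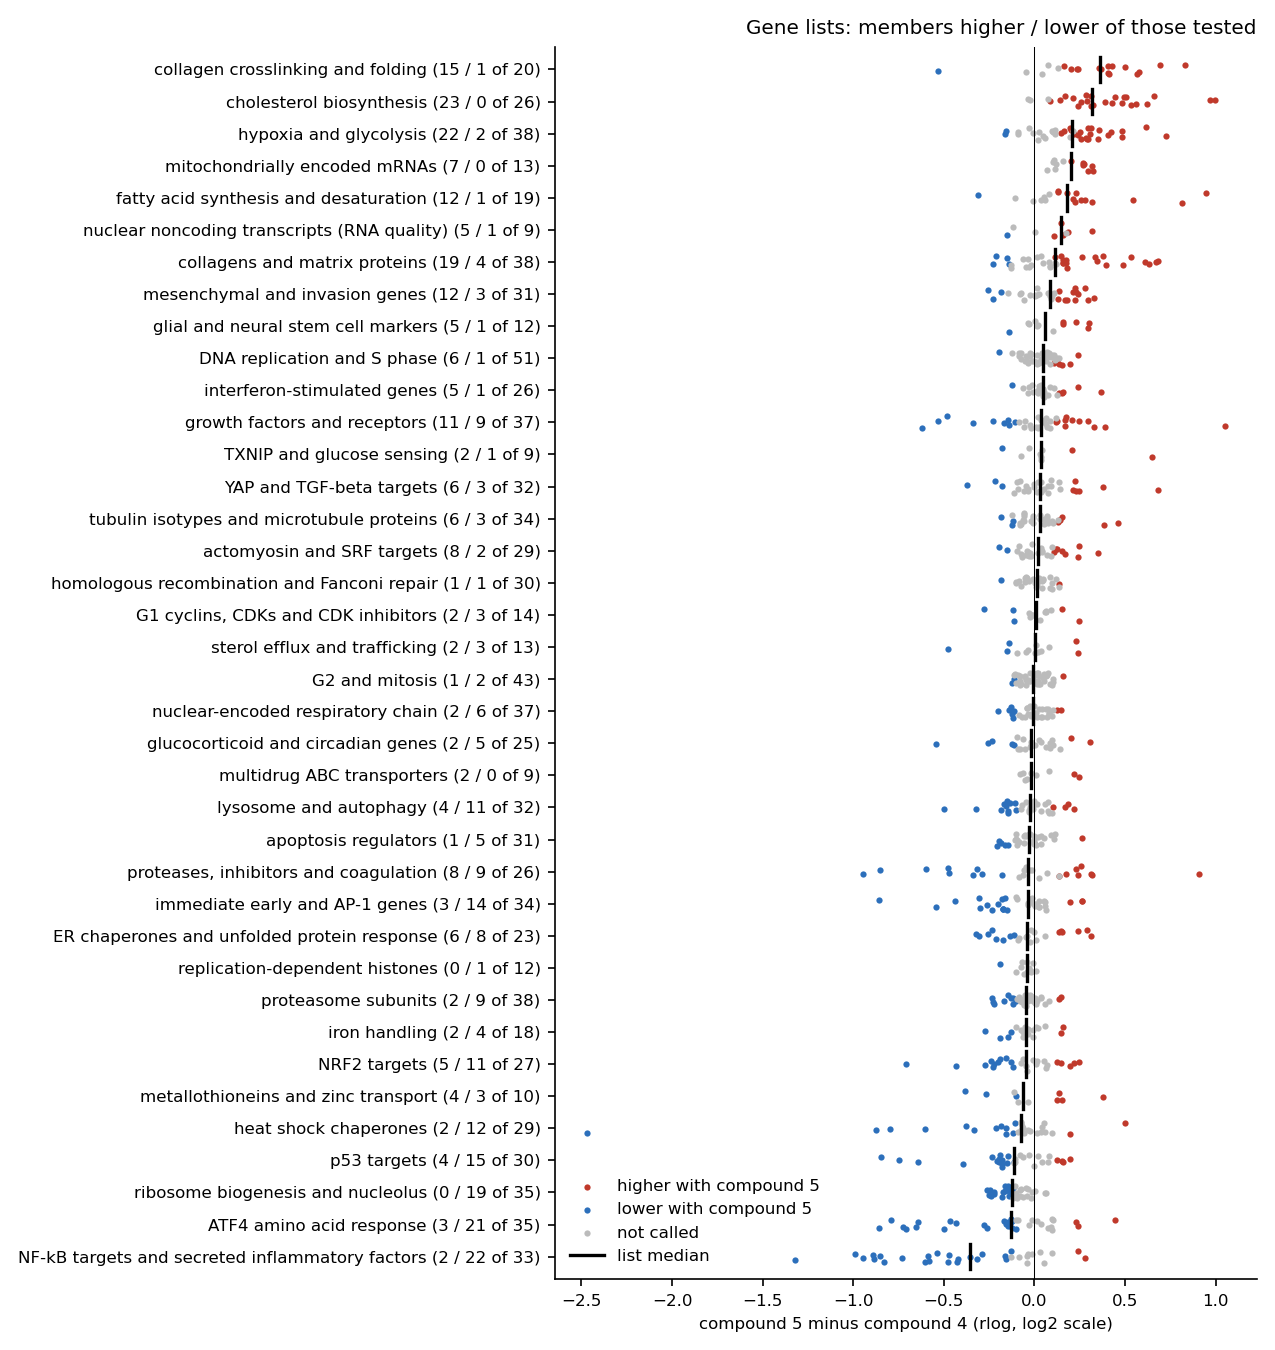
Difference between compound 5 and compound 4 (horizontal axis, rlog, log2 scale) of every tested member of 38 gene lists, 1 point per gene, with the list median as a black bar; the numbers are members higher and lower of those tested. Collagen crosslinking (median 0.36) and cholesterol synthesis (0.32) stand at the top and NF-kB targets (-0.36) at the bottom, and lists such as G2 and mitosis (-0.01) centre near 0.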

How the data were processed

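RNA sequencing of poly(A) RNA gave 12 libraries, 3 per group. The submitters' processing notes name the aligner STAR 2.7.10a, the build GRCh38 and DESeq2 1.30.1; which tool counted reads, with which annotation, strand setting and filter, is not stated in the sources used here. The authors deposited 1 table of rlog (log2) values for 62757 genes, of which 25759 stood at 0 in every library. It holds no counts, so depth is unknown and no counting interval was computed; precision is the spread between libraries (median residual SD 0.0468 on 8 residual degrees of freedom). If the replicates shared a source culture, p-values would measure only technical spread.

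The test used limma 3.58.1 with R 4.3.3 on genes with a mean level of at least 3, with 1 mean per group over 12 libraries. It used eBayes with a trend, two-sided p-values, Benjamini-Hochberg over 15524 genes and a threshold of 0.05. On simulated data with 100 changed genes of each size, it recovered 87% at 0.2 and 100% at 0.5. False calls there were 6.03%. Members and the 42 gene lists were chosen with earlier results of these data known, so list counts are descriptions and no set test was run. The text names the 14 largest called differences in each direction without overlap between libraries, up to 4 called members of each list and a fixed set of genes; genes outside this rule are marked in the text, and a few genes are not reported here. GENCODE 29 gave coordinates for 15099 of the tested genes, and RefSeq (GRCh38.p14) gave promoters, matched by symbol, for 11250. Figures used matplotlib 3.10.9 with Python 3.11.15. Whether libraries with the same replicate number belong together is not stated, and the main fit did not pair them. Other settings were no filter or a mean of 5, median-centred or quantile-normalized libraries, only the 6 libraries, no trend, robust eBayes, library weights, a replicate block, a minimum size and leaving out each library; a covariate for nuclear noncoding transcripts was added after seeing the data.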

Additional observations from a re-analysis of the deposited data

How the results depend on the processing

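The number of genes called, 3422, was between 2425 (no filter on low values) and 4457 (library weights) over the planned settings that kept any size of difference, and 2731 with the covariate for nuclear noncoding transcripts, which was chosen after seeing the data. Leaving out 1 library gave 2426 to 4060 calls, with 1223 to 1862 higher and 1200 to 2198 lower; the highest count came without replicate 1 of compound 5. A minimum difference of 0.5 left 92 genes, 38 higher and 54 lower, and a minimum of 1 left 3, with 1 higher and 2 lower. Of the 3422 calls 3244 were tested in all 15 planned settings of the fit, the rest having a mean below 5. The calls tested and kept in all 15 numbered 1695, and 50 more were kept wherever they were tested. In 3419 the direction was the same wherever they were tested. Of the 92 calls of at least 0.5, 90 were tested and kept in all 15 settings and 1 was kept wherever it was tested. Of 150 named genes that were called, 115 were tested and kept in every planned setting, 2 (HSPA1A and ANKRD1) were kept but not tested with a mean of 5, and 33, CDKN1A, MALAT1 and 4 mitochondrial mRNAs among them, lost the call in at least 1. Deviations from the group mean in compound 5 and compound 4 libraries of the same replicate number correlated at 0.02, -0.14 and 0.20. Over all pairs of groups the correlations lay between -0.22 and 0.25. With a replicate block 3462 genes were called. Depth limits the weakly expressed genes most, since rlog values shrink towards the mean: the median residual SD was 0.028 for means of 3 to 5 and 0.052 for means of 8 to 11.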

Other observations

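Further gene lists had medians near 0 and members called in both directions; 22.0% of all genes tested were called, 10.7% higher and 11.4% lower. Of 26 interferon-stimulated genes 5 were higher with compound 5 and 1 was lower (23.1% called), with a median of 0.04. IFITM3, an antiviral membrane protein, led them with 9.35, 9.47 and 9.42 with compound 5, 8.98, 9.05 and 9.10 with compound 4, and 9.47, 9.37 and 9.35 with vehicle. In IFITM3 the compound 5 and vehicle libraries overlapped and the compound 4 libraries lay below (difference 0.36, SE 0.044, limma adjusted p = 4.59e-07). The count of higher members was 8 without replicate 1 of compound 5, 2 without replicate 2 of compound 5 or replicate 1 of compound 4, and 3 without replicate 3 of compound 5. Of 18 iron-handling genes 2 were higher (1 without replicate 2 of compound 5 or replicate 1 of compound 4) and 4 lower (33.3% called); FTL, the ferritin light chain that stores iron, was lower by -0.19 and stood at 0.02 relative to vehicle with compound 5 and at 0.21 with compound 4. Of 31 apoptosis regulators 1 was higher, the BCL2 family member BID at 0.26, and 5 were lower, among them the death receptor gene TNFRSF10B at -0.21 (19.4% called; 3 higher without replicate 1 of compound 5). Of 32 targets of YAP and TGF-beta 6 were higher and 3 lower (28.1% called; 6 lower without replicate 1 of compound 5), with CCN2 at 0.25 and ANKRD1, a cardiac and stress-induced ankyrin repeat protein, at -0.37. Of 29 actomyosin and SRF genes 8 were higher and 2 lower (34.5% called; 5 higher without replicate 2 of compound 5 or replicate 3 of compound 4), led by the calponin CNN3 at 0.35; the count of lower members was 5 without replicate 1 of compound 5 and 0 without any one of replicates 2 and 3 of compound 5 or replicates 1 and 2 of compound 4. Of 25 glucocorticoid and circadian genes 2 were higher and 5 lower (28% called; 3 lower without replicate 1 of compound 4), with the circadian repressor BHLHE40 at 0.31 and the kinase SGK1 at -0.25.

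Housekeeping and marker lists are read against the same 22.0% of all genes tested. Among 38 proteasome subunits 9 were lower and 2 higher (28.9% called), with PSMD8 at -0.24, and among 37 nuclear-encoded respiratory chain genes 6 were lower and 2 higher (21.6%), with SDHB at -0.20. The 14 genes of the G1 phase had 2 higher, CDKN2D at 0.24 and CDK2 at 0.15, and 3 lower, among them CDK4 at -0.12 (35.7%). Of 9 genes around TXNIP and glucose sensing 2 were higher and 1 lower (33.3%). Of 9 multidrug transporters the drug efflux pumps ABCC3 (0.25) and ABCC2 (0.22) were higher (22.2%). Marker lists of other cell types gave 2 of 9 neuron markers higher (GAP43 and GAD1, 22.2%), 2 of 6 epithelial markers higher (MUC1 and KRT8, 33.3%) and 1 of 7 endothelial markers lower (TEK, at -0.15, 14.3%). The count of lower respiratory chain genes was 2 without replicate 2 of compound 5 or replicate 3 of compound 4, and 3 without replicate 2 of compound 4. The counts of 1 to 3 members in these lists moved to between 0 and 5 when single libraries were left out.

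Some of the larger differences lay outside every list, and the following were chosen after their values were seen. ADAMTS5, a protease that cleaves aggrecan, had 10.35, 10.37 and 10.32 with compound 5, 11.12, 11.01 and 11.04 with compound 4, and 10.55, 10.58 and 10.59 with vehicle (difference -0.71, SE 0.040). The compound 5 libraries lay below and the compound 4 libraries above every vehicle library. HAS1, a hyaluronan synthase, differed by -0.56 and CEMIP, which takes part in hyaluronan breakdown, by -0.62. PTGES, the prostaglandin E synthase that acts after COX-2, differed by -0.56, and the receptor antagonists of the interleukin 1 family IL1RN and IL36RN each by -0.55. ODC1, the first enzyme of polyamine synthesis, differed by -0.60. On the other side stood EFEMP1, a matrix glycoprotein, at 0.61, and CAV1, the coat protein of caveolae, which had 14.37, 14.19 and 14.25 with compound 5, 13.79, 13.81 and 13.72 with compound 4, and 13.86, 13.88 and 13.85 with vehicle (difference 0.50, SE 0.045).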
